A study of Caenorhabditis elegans with 2 samples.

Results

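The sites described are peaks of tagged DPL-1 that lie just before the first gene of an operon-like group in Caenorhabditis elegans. A group was a run of protein-coding genes on 1 strand in which each gene starts within 500 bp after the end of the gene before it, and its first gene has no such neighbour upstream. A peak was taken when its summit, the base of highest signal, lay within a window around an annotated 5' end of a first gene, of 1000 bp before it and 200 bp after it. Peaks between divergent genes, whose 5' ends both lie within 1000 bp of the summit, were left out. Of the 2797 peaks in the list of reproducible peaks, 300 met this rule (10.7%, exact 95% interval 9.6 to 11.9). In the 2797 strongest peaks of each replicate alone the rule took 301 and 289 peaks, or 10.5% ± 0.303 (SD, n = 2). The 300 peaks stand before 291 first genes, and the groups of these hold 708 genes, of which 417 are later genes. At 40 of the 300 peaks the summit also lies in the window of another gene (13.3%, 9.7 to 17.7). For 15 of the 300 this takes in a later gene of the same group. Such a peak cannot be assigned to 1 gene by position alone. The rule uses distance and strand only: no annotation of operons was used, so some groups are neighbours that are not known to be transcribed together.

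Chromatin immunoprecipitation and sequencing was done on whole larvae of the first stage (L1), of mixed sex, in 2 biological replicates of 1 group, without a second condition to compare. Both came from strain OP105, an unc119(ed3) mutant with the integrated transgene wgIs105, which carries dpl-1 fused to TY1, EGFP and FLAG tags and unc119 as a rescue. The sites are therefore those of a tagged protein made from a transgene, averaged over all tissues of the larva. The labels do not state whether the endogenous dpl-1 gene was intact. The list of reproducible peaks was made by the authors from the pooled data of both replicates with the irreproducible discovery rate (IDR). A peak's signal is the authors' own value on a scale that is not stated, so it was used to rank peaks within a list. Read depth is unknown from the files. Intervals in brackets are exact 95% Clopper-Pearson intervals over genes or peaks and cover counting error only.

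In C. elegans many genes stand in operons. Their genes are copied as a single precursor RNA from a promoter before the first gene, and the precursor is cut into messages of single genes by 3' end formation and by trans-splicing, with the spliced leader SL2 used mostly for later genes and SL1 for first genes. Genes of an operon usually lie close together, and many encode parts of the basic machinery of the cell. Because a leader replaces the start of a trans-spliced transcript, its annotated 5' end can lie downstream of the base where transcription began. DPL-1 is the worm DP protein, which binds DNA as a partner of an E2F protein. It belongs to the DREAM complex, in which LIN-54 contacts a second element, the cell cycle genes homology region (CHR), written here as TTTGAA or TTCGAA.

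The sequences under the strongest of these peaks are shown first, because most of them share an arrangement of bases at nearly the same place. Each line gives 121 bases centred on the summit, read 5' to 3' on the strand of the first gene, from the RefSeq genome WBcel235, whose coordinates are those of ce11. In the first set, capitals mark a composite, searched on both strands. It opens with TTTGAA or TTTAAA, or with either of these begun by TTC in place of TTT. After 3 or 4 bases of any kind, which stay in lower case, it ends with CCGC or CCTC. In all but the last line the composite reads on the strand of the first gene and ends before the summit. The chk-1 line holds it on the other strand, after the summit.
sec-61.G (chrV:10897320-10897440, minus strand): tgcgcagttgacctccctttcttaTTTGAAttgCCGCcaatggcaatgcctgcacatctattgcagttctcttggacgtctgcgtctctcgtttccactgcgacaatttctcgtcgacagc
rpb-11 (chrII:14059907-14060027, plus strand): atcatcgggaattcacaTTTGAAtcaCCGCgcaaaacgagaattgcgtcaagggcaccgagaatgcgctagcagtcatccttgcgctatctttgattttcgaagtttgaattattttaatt
syf-3 (chrV:5939649-5939769, plus strand): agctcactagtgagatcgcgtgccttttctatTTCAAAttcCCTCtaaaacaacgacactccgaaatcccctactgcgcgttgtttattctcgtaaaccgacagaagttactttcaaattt
vps-22 (chrIII:4963058-4963178, minus strand): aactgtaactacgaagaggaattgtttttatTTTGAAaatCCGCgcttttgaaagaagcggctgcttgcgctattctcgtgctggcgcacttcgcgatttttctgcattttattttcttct
npp-19 (chrII:10798611-10798731, minus strand): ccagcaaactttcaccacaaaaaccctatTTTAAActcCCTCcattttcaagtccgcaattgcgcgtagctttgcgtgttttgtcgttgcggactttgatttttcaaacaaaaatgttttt
umps-1 (chrIII:10357940-10358060, minus strand): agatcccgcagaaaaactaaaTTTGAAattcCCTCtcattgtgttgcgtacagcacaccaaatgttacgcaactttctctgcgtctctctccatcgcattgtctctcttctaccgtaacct
eif-3.B (chrII:14795093-14795213, plus strand): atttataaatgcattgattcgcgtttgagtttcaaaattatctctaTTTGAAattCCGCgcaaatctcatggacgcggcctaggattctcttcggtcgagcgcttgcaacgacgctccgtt
emb-5 (chrIII:4720983-4721103, minus strand): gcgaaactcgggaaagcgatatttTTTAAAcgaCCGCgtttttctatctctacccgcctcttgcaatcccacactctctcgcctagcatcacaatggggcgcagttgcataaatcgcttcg
chk-1 (chrV:3759662-3759782, minus strand): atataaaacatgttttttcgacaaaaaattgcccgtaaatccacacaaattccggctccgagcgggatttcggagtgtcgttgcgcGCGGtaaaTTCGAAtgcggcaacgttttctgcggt

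Other strong peaks hold an E2F octamer (TTTCCCGC, TTTCGCGC, TTTGCCGC or TTTGGCGC, searched on both strands) without the composite. Capitals mark the octamer in the next lines. They were chosen for show because cdl-1 has 1 match at a strong peak, and because snpc-3.4 holds a pair of them.
cdl-1 (chrII:10785222-10785342, plus strand): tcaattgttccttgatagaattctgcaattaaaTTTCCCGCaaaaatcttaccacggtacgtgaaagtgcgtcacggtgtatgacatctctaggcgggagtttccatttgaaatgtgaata
snpc-3.4 (chrIII:4019964-4020084, plus strand): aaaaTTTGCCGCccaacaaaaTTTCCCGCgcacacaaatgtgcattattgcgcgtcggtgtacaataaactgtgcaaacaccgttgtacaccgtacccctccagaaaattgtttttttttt

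Strong peaks with neither arrangement in these bases are shown for contrast, and no letters are in capitals.
mes-2 (chrII:14383790-14383910, plus strand): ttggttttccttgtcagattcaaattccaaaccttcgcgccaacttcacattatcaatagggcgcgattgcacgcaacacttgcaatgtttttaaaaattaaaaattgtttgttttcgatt
ubc-7 (chrIII:9631431-9631551, minus strand): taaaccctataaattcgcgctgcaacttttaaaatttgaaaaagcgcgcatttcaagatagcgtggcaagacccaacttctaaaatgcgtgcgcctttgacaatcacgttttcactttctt
hrpa-1 (chrIV:3338857-3338977, minus strand): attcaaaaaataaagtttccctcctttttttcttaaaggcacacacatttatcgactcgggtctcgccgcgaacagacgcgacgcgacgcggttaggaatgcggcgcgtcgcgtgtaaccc

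The composite was noticed when the summit sequences of the 40 strongest of these peaks outside chromosome I were read, so its share among those 40 is a description of how it was chosen. There, 23 had it no more than 100 bp from the summit (57.5%, 40.9 to 73). In the 260 peaks whose sequence had not been read, 21 held it (8.08%, 5.07 to 12.1). Among the 44 of these that rank in the strongest quartile of the list, 11 held it (25%, 13.2 to 40.3). In windows of the same 201 bp length, centred 236 bp upstream of each of 19973 protein-coding genes, 2.21% held it (2.01 to 2.43). The interval of the unread peaks thus lay above that of the windows. The windows are placed at a fixed distance from every gene and not on summits, so the 2 sets are unlike. The difference was not tested.

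Over all 300 peaks the composite was present at 44 (14.7%, 10.9 to 19.2), a count that includes the 23 it was chosen on. All 40 of the peaks that were read belong to the strongest quartile of the list, where 34 of 84 peaks held it (40.5%), so that share restates the choice in part. Apart from those on chromosome I, the unread peaks of this quartile, with 25%, are its weaker ones. Neither share is thus fully comparable with that of a whole quartile of other peaks. None of the peaks below the strongest quartile had been read. In the second quartile 5 of 83 held it (6.02%, 1.98 to 13.5), in the third 1 of 79 (1.27%, 0.032 to 6.85) and in the weakest 4 of 54 (7.41%, 2.06 to 17.9). The 21 unread peaks with the composite had a median signal of 152, with an interquartile range of 86.5 to 238, and medians of 97.9 in replicate 1 and 63.3 in replicate 2. The 239 unread peaks without it had a median of 67.7 (46.7 to 109), and 41.5 and 27.7 in the replicates. The order of the medians was the same in both replicates, and the interquartile ranges overlap.

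The composite was also counted at 1055 promoter peaks that are not upstream of operon-like groups, whose sequences had not been read. The composite was present at 13.4% of them (11.4 to 15.6), and at 38.9% of those in the strongest quartile of the list (33.3 to 44.8). It was present at 12.2% of the 739 peaks between divergent genes (9.91 to 14.8) and at 5.83% of the 703 peaks outside any promoter window or divergent pair (4.22 to 7.83). The intervals of the operon-like and the other promoter peaks overlap widely, so the composite does not set the operon-like peaks apart. A match is a description of letters and does not show which protein touches them.

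The place and the direction of the composite were regular. Of the 44 matches at operon-like peaks, 37 read on the strand of the first gene (84.1%). The 44 include the 23 peaks on which the composite was chosen, so these values describe that choice in part. The centres of these 37 lay at a median of 29 bp upstream of the summit, with an interquartile range of 23 to 35 bp, and 36 of them lay upstream of it. The 7 matches on the other strand had their median centre 28 bp downstream of the summit, so by these medians the summit lay on the CCGC or CCTC side of the match. There was 1 exception on each strand, ceh-20 with the match 29.5 bp downstream on its own strand and lips-15 with the match 19 bp upstream on the other. Both are unread peaks and were named after their values were seen. At other promoter peaks 126 of 143 matches read on the strand of the nearest gene (88.1%), with their median 31.2 bp upstream of the summit (24 to 38.9). At single peaks the distance from the match centre to the summit was 30 bp at sec-61.G, 37 bp at rpb-11, 22 bp at syf-3 and 23 bp at vps-22. It was 25 bp at npp-19, and all of these single peaks are among those that were read.

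**Figure D1:**
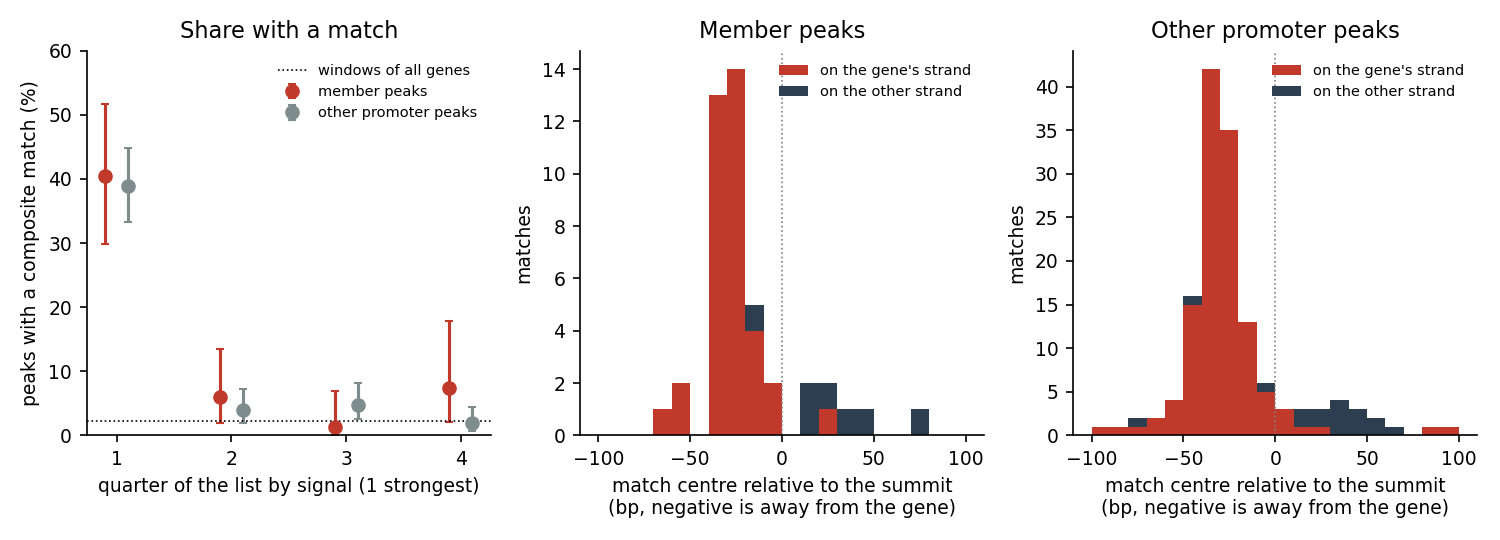
Left, percentage of operon-like peaks (member peaks) and of other promoter peaks with a composite match within 100 bp of the summit, by quartile of the 2797 peaks by signal; bars are exact 95% intervals and the dotted line is the 2.21% of windows upstream of all genes. The strongest quartile of member peaks (40.5%) includes the 40 on which the composite was chosen. Middle and right, number of matches by distance of the match centre from the summit in bp, coloured by strand; most lie on the strand of the gene, with medians 29 and 31.2 bp upstream.

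The E2F octamer was less regular in direction. It was present at 32 of 300 summits, no farther than 100 bp away (10.7%, 7.41 to 14.7), against 3.57% of the windows upstream of all genes (3.32 to 3.84). It stood at 11.9% of the peaks in the strongest quartile of the list (5.86 to 20.8) and at 9.26% in the weakest (3.08 to 20.3), so the intervals overlap. Of 34 matches, 19 read on the strand of the first gene, and 15 on the other. Of the 19, 13 lay upstream of the summit, 10 of them at 11 to 50 bp upstream, while 0 lay at 11 to 50 bp downstream. Their median was 16.5 bp upstream. Of the 15 on the other strand, 9 lay upstream of the summit. Other promoter peaks did not show this skew to the same degree. There, of 84 matches on the strand of the nearest gene, 31 lay 11 to 50 bp upstream of the summit and 23 lay 11 to 50 bp downstream. Their median was 1 bp upstream. Other promoter peaks held the octamer at 138 of 1055 summits (13.1%) and divergent peaks at 11.2% (9.05 to 13.7). Among the operon-like peaks only npp-19 and pop-1 held both the octamer and the composite. The bare CHR hexamer was no more frequent at these peaks, 54.7% (48.8 to 60.4), than in the windows of all genes, 56.7% (56 to 57.4). Of the octamers, TTTCGCGC was present at 15 peaks, TTTCCCGC at 11, TTTGGCGC at 5 and TTTGCCGC at 2. Both spellings of the snpc-3.4 pair stand within 60 bp upstream of its summit.

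Of the 30 peaks with an octamer and no composite, 5 are given with their values as examples. cdl-1, which encodes the protein that binds the stem-loop of histone messages, had a signal of 546 and of 352 and 196 in replicates 1 and 2. ima-2, which encodes an importin alpha, had 885, with 538 and 358 in the replicates. cdt-1, which encodes the replication licensing factor CDT-1, had 229, with 148 and 84.3. bir-1, the survivin of the chromosomal passenger complex, had 134, with 97 and 36.5. polq-1, which encodes DNA polymerase theta, had 134, with 82 and 52.8. Its summit lies 5 bp downstream of the 5' end of polq-1 and 105 bp upstream of that of him-10. This peak therefore cannot be assigned to polq-1 alone. These 5 were picked by name after their values were seen.

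The strongest operon-like peak lies before sec-61.G, which encodes the gamma subunit of the Sec61 channel that carries proteins into the endoplasmic reticulum. Its signal was 1509 and its rank 7 of 2797. It ranked 8 in replicate 1 with a signal of 922, and 6 in replicate 2 with 592. The summit lies 237 bp upstream of sec-61.G on chromosome V, and F32D8.13 follows 115 bp after the gene. The peak is also in the window of F32D8.13, since sec-61.G is short.

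Genes of transcription and RNA processing follow. rpb-11, a subunit of RNA polymerase II, had a signal of 1186, with 794 and 397 in replicates 1 and 2. Its group holds W01G7.4 and, at 490 bp, lem-2, a protein of the inner nuclear membrane, which also had a peak of its own (below). syf-3, a splicing factor, had 1005, with 637 and 369, and is followed by pst-1, a transporter of activated sulfate, and M03F8.1. hrpa-1, an hnRNP A protein that binds RNA, had 732, with 476 and 258, and is followed by F42A6.6. emb-5, the worm SPT6 that travels with RNA polymerase II, had 552, with 327 and 228, and stands before him-18, a scaffold for nucleases of recombination. These 4 first genes thus ranked between 19 and 145 in the pooled list, and each was high in both replicates.

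Nuclear transport and chromatin were a second set. imb-3, an importin of the beta family, had a signal of 1044, with 636 and 405 in replicates 1 and 2, and C53D5.5 follows it. ima-2 (above) stands before hrpk-1, an hnRNP K protein. npp-19, a nucleoporin, had 876, with 565 and 312, and is followed by set-14, a SET domain gene, and vps-11, a part of the HOPS tethering complex. mes-2, the histone methyltransferase of the worm Polycomb complex, had 852, with 542 and 307, and F26H11.8 follows 59 bp after it. No signal in this set fell below 300 in either replicate.

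Membrane traffic and protein turnover gave several more. vps-22, a subunit of the sorting complex ESCRT-II, had a signal of 981, with 647 and 334, and C27F2.4 follows it. Its summit lies 625 bp upstream of vps-22 but nearer to C27F2.9, a gene on the same strand that overlaps vps-22. vps-4, the ATPase that takes ESCRT complexes apart, had 847, with 513 and 329, and Y34D9A.8 follows. ubc-7, a ubiquitin-conjugating enzyme, had 814, with 510 and 305. It stands before rpac-19, a subunit shared by RNA polymerases I and III, and tbg-1, gamma-tubulin. sti-1, a co-chaperone of Hsp90, had 591, with 351 and 232. Its group is completed by srbc-58, R09E12.9, srbc-59 and srbc-60, of which the srbc genes are chemoreceptors, so the distance rule joined genes of unlike kinds here.

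The remaining genes of the 20 strongest peaks are of mixed function. umps-1, which makes UMP, had a signal of 775, with 462 and 308 in replicates 1 and 2, and is followed by spp-1, a saposin-like protein. eif-3.B, a subunit of translation initiation factor 3, had 683, with 442 and 242, and is followed by tbc-20, a TBC domain gene. ppm-1.A, a protein phosphatase, had 601, with 333 and 265, and is followed by txt-10. T26E3.4 with par-6, a cell polarity gene, had 752, with 450 and 301. F13H8.2 with bpl-1, a biotin protein ligase, had 634, with 394 and 243. F13G3.10 with mif-3, related to macrophage migration inhibitory factor, had 611, with 362 and 242. cdl-1 (above) is followed by tag-209.

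**Figure D2:**
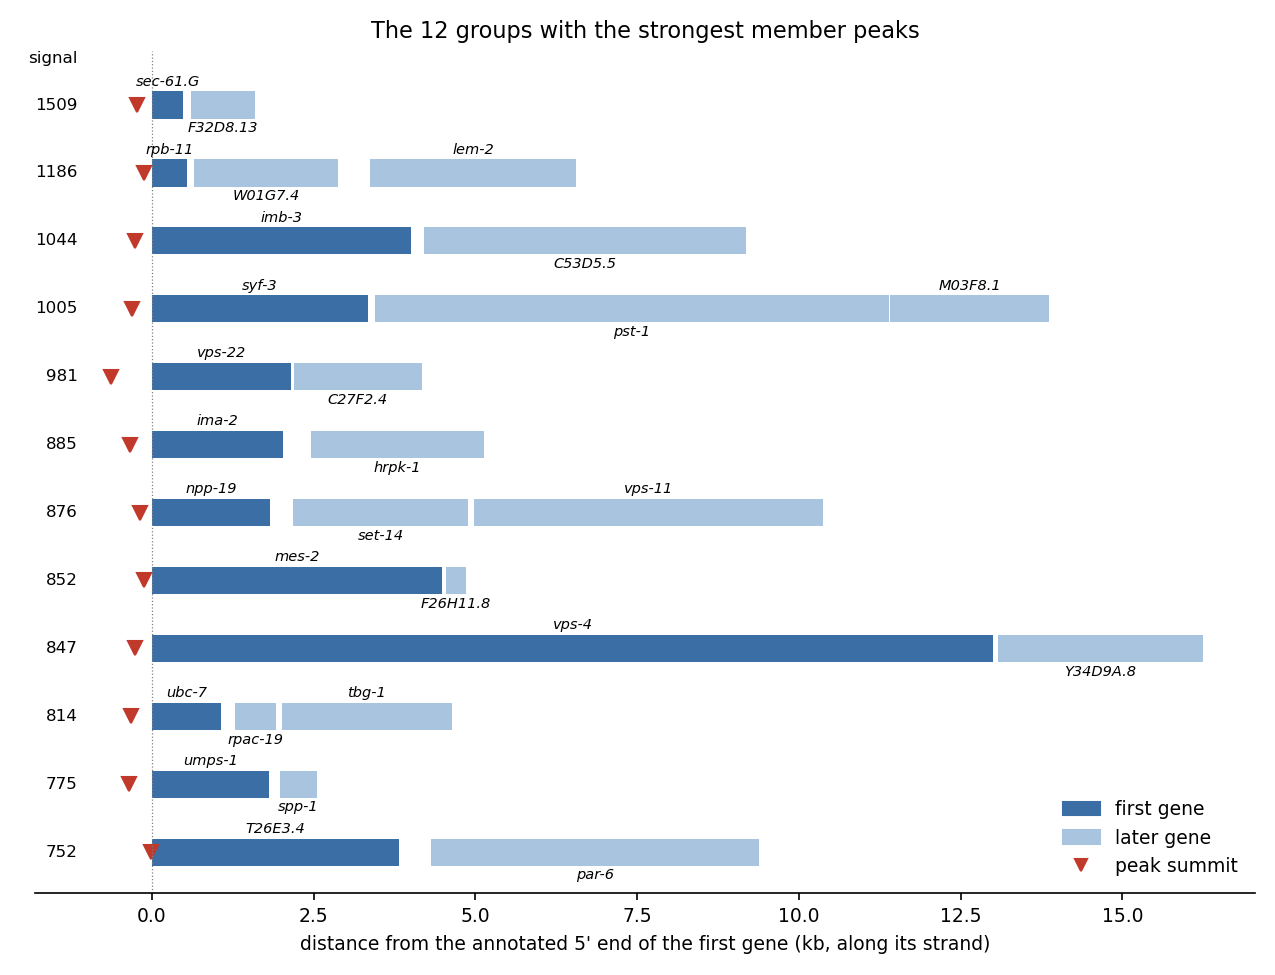
Map of the 12 groups with the strongest operon-like peaks: boxes are annotated genes on a scale in kb from the 5' end of the first gene, drawn along its strand, triangles are peak summits and the numbers at the left are pooled signals, from 1509 at sec-61.G to 752 at T26E3.4. Every one of these 12 summits lies upstream of the first gene.

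Over the 300 peaks the signal ran from 30.5 to 1509 with a median of 79.5 (interquartile range 49.6 to 169), and 167 lay above the list's median of 71.5 (55.7%, 49.8 to 61.4). The median was 74 at other promoter peaks and 114 at divergent peaks, where 68.5% lay above the list's median (65 to 71.8). A summit within 100 bp was found for 291 of the 300 in the relaxed lists of both replicates (97%, 94.4 to 98.6). The 9 others had signals from 30.9 to 45.8; 5 had no such summit in replicate 1 and 4 had none in replicate 2. Across the 291 peaks the replicate signals had a Spearman correlation of 0.877 and, on the log2 scale, a Pearson correlation of 0.915, as a description over peaks of the same pair of libraries. Replicate 1 signals were the higher by a median of 0.65 on the log2 scale, and this scale is not comparable between lists.

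**Figure D3:**
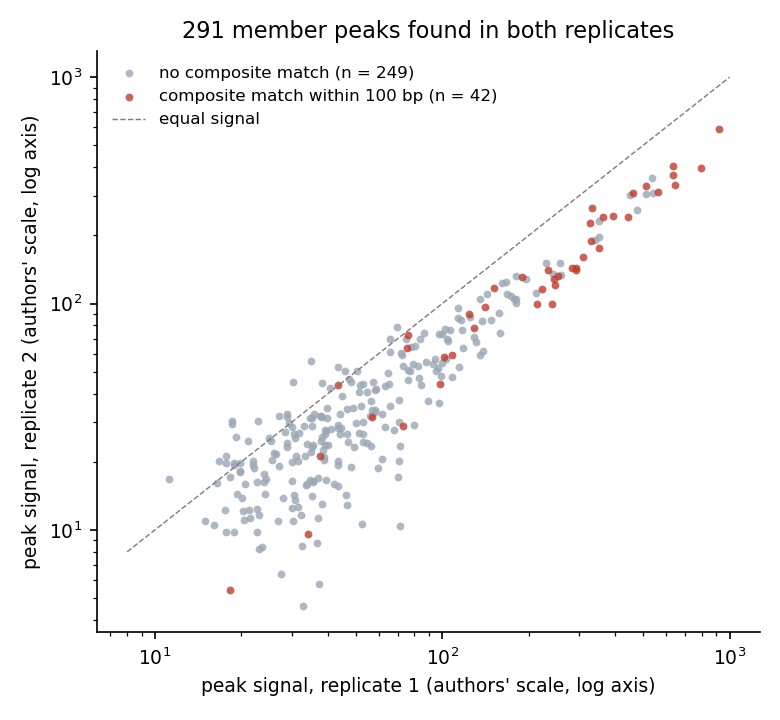
Signal of each of the 291 operon-like peaks found in both replicates, replicate 1 against replicate 2, on log axes in the authors' units; red points hold the composite within 100 bp of the summit. For 265 of the 291, replicate 1 had the higher signal, so those points lie below the dashed line of equal signal, and 26 lie on or above it.

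Summits lay upstream of the first gene in 281 of the 300 (93.7%, 90.3 to 96.1), within limits that the rule itself sets. The median was 236 bp upstream (interquartile range 138 to 380), and 51 summits lay over 500 bp upstream (17%, 12.9 to 21.7). The extremes were 931 bp upstream, at eif-3.J, and 137 bp downstream, at Y56A3A.31. Other promoter peaks had a median of 219 bp upstream of their nearest 5' end. Just outside the rule by distance were F33H2.8, with a summit 1051 bp upstream and a signal of 313, and blos-4, with one 234 bp downstream and 39.3. Farther out were ilcr-2, with a summit 1099 bp upstream and 637, and nspg-9, followed by dld-1, with one 296 bp downstream and 1536. The peak ranked 6 in the list lies 261 bp upstream of dld-1 itself, so the nspg-9 summit cannot be set apart from a dld-1 peak. Just inside the rule by the gap to the second gene were ZK622.4 at 494 bp with a signal of 36.7 and T26E3.4 at 487 bp. Just outside it were W03H9.2 at 501 bp with a signal of 110 and Y75B8A.7 at 503 bp with 518.

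**Figure D4:**
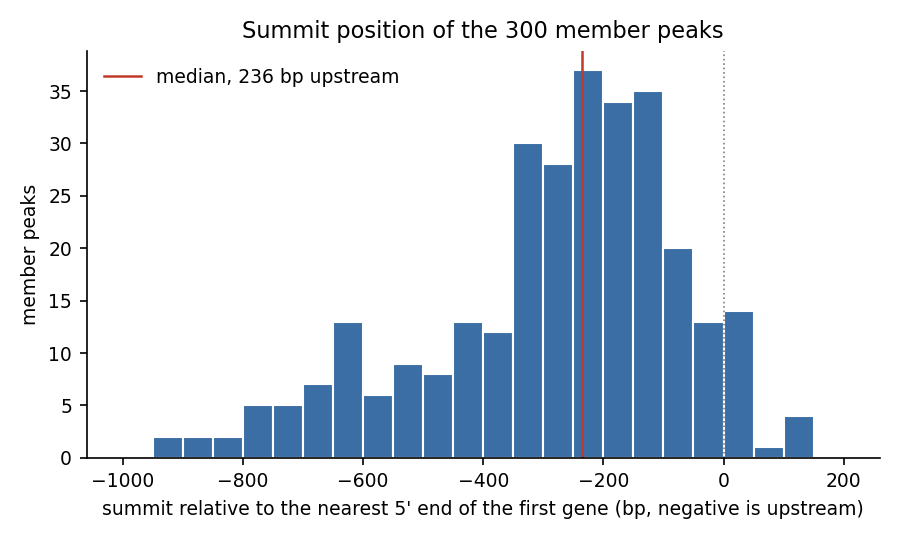
Number of operon-like peaks by distance of the summit from the nearest 5' end of the first gene, in bins of 50 bp, with negative values upstream; the red line is the median, 236 bp upstream. Most summits lie between the 5' end and 400 bp upstream, and few lie near the limit of 1000 bp.

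First genes of groups had a peak in a larger share than genes elsewhere when every peak is counted. The annotation holds 2658 first genes, 3589 later genes and 13726 genes in no group. An operon-like peak stood before 291 first genes (10.9%, 9.79 to 12.2; 10.6% ± 0.372 over the lists of the replicates, SD, n = 2). With divergent peaks counted too, 758 first genes had a peak in their window (28.5%, 26.8 to 30.3; 28% ± 1.36, SD, n = 2), while 14.3% of all protein-coding genes did. Later genes had one in 10.1% (9.17 to 11.2; 10.2% ± 0.217) and genes in no group in 12.7% (12.1 to 13.3; 12.4% ± 0.258). Without divergent peaks the shares were 296 of 2658 first genes (interval 9.96% to 12.4%), 9.08% of later genes (8.16 to 10.1) and 5.54% of genes in no group (5.17 to 5.94), beside 6.92% of all genes. The difference between first and later genes was therefore mostly in divergent peaks: 462 first genes had no peak other than a divergent one. The group rule itself places a same-strand gene within 500 bp before each later gene, which leaves less room there for a divergent neighbour. The shares were not adjusted for how many genes of each kind have such a neighbour. Neighbouring windows share peaks, so these genes are not independent and the differences were not tested.

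First genes with a second gene up to 150 bp away were bound more often than those with a more distant one. With 1 to 100 bp between them, 16.5% of first genes had an operon-like peak (13.6 to 19.8; 15.9% ± 0.861, SD, n = 2) and 39.8% had any peak (35.8 to 44). With 101 to 150 bp the shares were 15.3% (12.4 to 18.7) and 45.6% (41.3 to 50). They were 8.37% (5.19 to 12.6) and 24.7% (19.4 to 30.7) at 151 to 200 bp, and 8.12% (5.81 to 11) and 19.7% (16.2 to 23.6) at 201 to 300 bp. At 301 to 400 bp they were 5.56% (3.63 to 8.09) and 16% (12.7 to 19.7), and at 401 to 500 bp 8.04% (5.56 to 11.2) and 16.3% (12.8 to 20.3). Both counts stepped down past 150 bp, and within either side of that step they did not fall steadily. In the groups with an operon-like peak the median gap was 115 bp and 49.4% of gaps were of 80 to 150 bp, while in all groups the median was 185 bp and the share 33.1%.

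Larger groups were bound more often when every peak is counted. A peak of any kind stood before 26.2% of the first genes of pairs (24.3 to 28.2), 31.7% for groups of 3 (27.4 to 36.1), 43.7% for groups of 4 (34.8 to 52.8) and 47.8% for groups of 5 or more (35.4 to 60.3). For operon-like peaks alone the shares were 10.7% (9.35 to 12.1), 9.83% (7.26 to 12.9), 17.5% (22 of 126 genes) and 14.9% (10 of 67 genes), and the bars overlap in the plot by size.

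**Figure D5:**
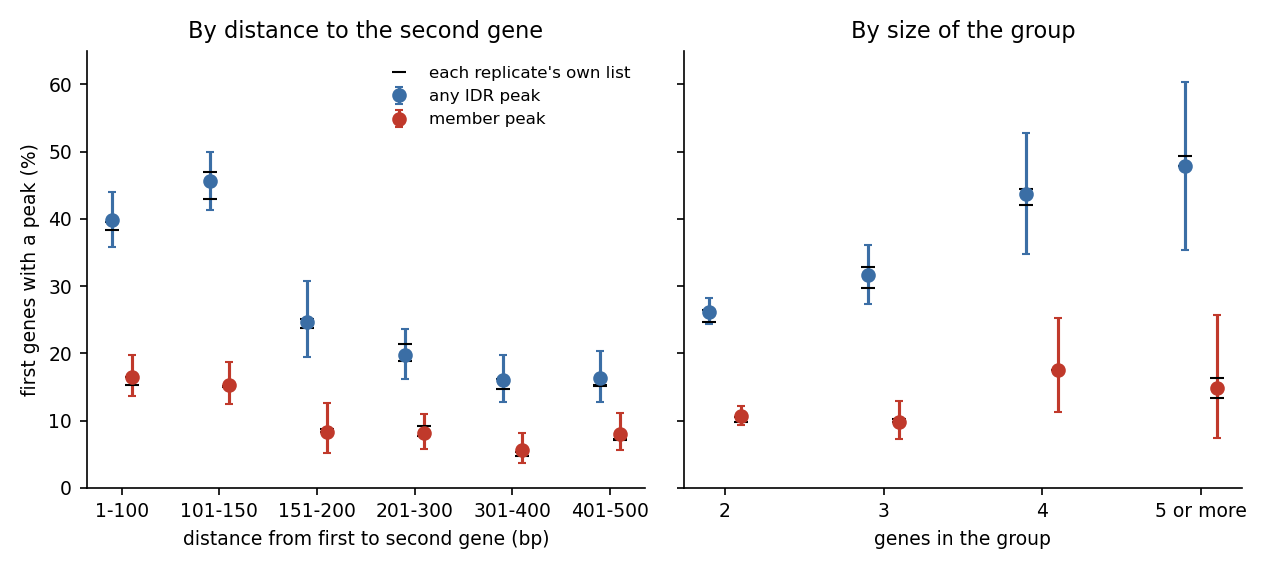
Percentage of first genes with any reproducible peak (blue) or with an operon-like peak (red), by the distance to the second gene in bp (left) and by the number of genes in the group (right); bars are exact 95% intervals and black ticks are the lists of each replicate alone. Both shares are highest at distances up to 150 bp, 39.8% and 45.6% for any peak.

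Most later genes in the bound groups had no peak of their own. Of the 417, 37 had a peak in their window other than an operon-like one (8.87%, 6.32 to 12), and they stood in 34 groups. The same count in the 3172 later genes of other groups was 9.77% (8.76 to 10.9), so the share in the bound groups is near the background. Within the bound groups it was larger where the space before the gene was larger. With 1 to 200 bp before it, 10 of 290 later genes had such a peak (3.45%, 1.67 to 6.25), with 201 to 400 bp 13 of 88 (14.8%, 8.11 to 23.9) and with 401 to 500 bp 14 of 39 (35.9%, 21.2 to 52.8). In the later genes of other groups the same count gave 7.62% (6.37 to 9.03), 13% (142 of 1089) and 9.54% (7.07 to 12.5). At 401 to 500 bp the intervals of the 2 sets do not overlap, with the larger share in the bound groups. At 1 to 200 bp they do not overlap either, with the smaller share in the bound groups. The count leaves out operon-like peaks but keeps divergent ones, which can lie in the window of a gene behind a short first gene. It is therefore not quite alike in the 2 sets, and the differences were not tested.

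The strongest peaks at later genes exceeded that of their group. F48A11.4 lies 428 bp after ubxn-3 and had a peak of signal 1318 at 142 bp upstream, while the peak before ubxn-3 had 86.2. eif-3.C, another subunit of translation initiation factor 3, lies 401 bp after sys-1, a beta-catenin, and had 1071 against 292. icd-2, the alpha subunit of the nascent polypeptide-associated complex, had 846 against 436 before psf-3, a GINS subunit of the replication helicase. btf-1, related to the TATA-protein remodeller Mot1, had 529 against 37.5 before lec-1, a galectin. rsa-2, which acts at centrosomes in spindle assembly, had 438 against 124 before spat-2. In all 5 the later gene starts 401 to 452 bp after the one before it.

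The groups of the 15 functional lists differed in which place their genes hold. These lists were chosen with earlier results of these data known, and counts are given beside the 10.9% of all first genes and the 11.6% of all later genes that belong to a group with an operon-like peak. Among 53 DNA repair and checkpoint genes, 6 of 11 first genes had an operon-like peak: chk-1, a checkpoint kinase, with a signal of 427 (283 and 143 in the replicates), exo-1, an exonuclease, with 277 (173 and 108), and rad-51, the recombinase, with 177 (97.7 and 73) led them. polq-1 (above) with rev-3 behind it, both DNA polymerases of repair, and xpa-1 of nucleotide excision repair followed with 134 and 87.9. Among 40 nuclear pore and envelope genes it was 5 of 12, with npp-18 at 164 (86.1 and 73.9) after imb-3, ima-2 and npp-19, and lem-2 as a later gene. lem-2 also had a peak of its own, ranked 361 in the pooled list, with the summit 140 bp upstream.

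Genes of RNA polymerase, splicing and RNA processing stood most often behind a bound first gene. Of 35 later genes on this list, 15 were in a group with an operon-like peak (42.9%), and 7 of 29 first genes had one. exos-9 of the exosome stands after pfd-5, a prefoldin subunit (signal 372, with 244 and 128 in the replicates). lsm-8 is second after sqd-1 (280), smg-4 of nonsense-mediated decay is the fifth gene of the ztf-7 group (258) and mdt-8 of Mediator is second after Y62F5A.12 (199). None of these last 3 had a peak in its own window.

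Cytoplasmic ribosomal and translation genes that stand in groups were more often first than later genes, 29 against 9 and 16 against 9. All 29 first genes among the cytoplasmic ribosomal proteins had some peak, of which 9 had an operon-like one. rps-28 had a signal of 378 (229 and 151 in the replicates), rpl-6 had 203 (113 and 86.7) and rps-5 had 174 (100 and 73.5). rps-24 had 151, and rpl-16 is second after lias-1 (155). Of the translation factors and tRNA synthetases, 5 of 16 first genes had an operon-like peak, led by eif-3.B and by eef-1B.1 of elongation factor 1 at 308 (181 and 132). The eef-1B.1 summit, 2 bp downstream of its 5' end, also lies 333 bp upstream of aco-2. kars-1 and eif-3.G had 92.2 and 50.2. For mitochondrial ribosomal proteins it was 3 of 16 first genes and 4 of 27 later ones, with mrpl-47 at 529 (352 and 176) before let-363, the TOR kinase. mrps-33, mrps-22 and mrpl-48 are later genes of groups with 199, 152 and 147, and mrps-18.C of one with 76.7.

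The list of DREAM and synMuv genes also takes in MES chromatin regulators, and an operon-like peak stood before 4 of its 11 first genes. Of these, lin-36 had 174 (102 and 76.8) and mep-1 had 121 (75.7 and 46). The others were the MES genes mes-2 (above) and mes-4, a histone methyltransferase, with 94.3 (58.3 and 33.3). lin-52, a subunit of the DREAM core, is second after ZK632.9, which had peaks of 44.5 and 40.1. Of the chromosome segregation genes, bir-1, spdl-1 (130) and hcp-4 (114), a kinetochore protein, were among 15 first genes, and tbg-1 and kbp-2 (73.6) were later ones. The summit 267 bp upstream of spdl-1 lies nearer to snpc-1.1, 2 bp downstream of its 5' end. Of the replication genes, 2 of 8 first genes had one, psf-3 with 436 and cdt-1 with 229, while all 8 had some peak.

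Other lists had few operon-like peaks, although some had other peaks. Germline genes had none at 15 first genes and 3 of 17 later ones: dsb-1, needed for meiotic double-strand breaks, after gex-3 of the WAVE complex (441, with 293 and 143), drh-3, a helicase of small RNA pathways (194), and gld-2, a poly(A) polymerase (97.9). Cell-cycle control genes had none at 9 first and 6 later genes, while 4 of the 9 had some peak. The proteasome and chaperonin list had 1 of 13 first genes, pas-2 with 30.6, while 11 of the 13 had some peak, and the later genes pbs-5 and pas-1 with 63.8 and 50.6. The respiratory list had none at its 10 first genes, of which 7 had some peak, and cyc-1 as a later gene of the eif-2beta group (48.6). That list is not complete: ndus-8 (below) and ndub-3 (53.8), which are not on it, were first genes with an operon-like peak, and ndua-12 stands behind ubxn-2 (155). Of 171 chemoreceptor first genes none had any peak, and 7 of 202 later ones stood in a bound group. Besides the srbc genes these were srd-17 after mes-4, str-141 after tmed-10 (61.3), srx-96 after T01D3.3 (48.3) and srh-71 after T10D4.6 (38.2). Collagens had none at 17 first genes, and col-164 after lsy-2 (150) was the only later one of 23. Among list genes in groups where neither the gene nor the first gene had a peak are apc-10, apn-1, asb-1, cct-3 and cdc-25.2.

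The longest bound groups were these. ran-4, related to nuclear transport factor 2, leads 8 genes (tmem-208, R05D11.9, paxt-1, ddx-52, snrp-27, edc-3 and F43G9.13 after it) with a signal of 60.7, and 38.6 and 20.3 in the replicates. rpb-6, a subunit of RNA polymerases, leads 7 (dohh-1, dap-3, mrps-22, algn-9, crn-3 and crn-5) with 152, and 76.2 and 72.8. ztf-7 leads 6 (F46B6.6, F46B6.5, F46B6.4, smg-4 and F46B6.12) with 258, and 143 and 110. ndus-8, a subunit of respiratory complex I, leads 6 (adr-2, R151.10, R151.8, hsp-75 and der-2) with 89.9, and 56 and 31.9. Groups of 5 include sti-1 and T14B4.3, the latter with exos-8 of the exosome in the fourth place and a signal of 76.7. A further group of 5 is led by sod-1, a superoxide dismutase, with a signal of 370 and 247 and 121 in the replicates. Of the 10 bound groups with 5 or more genes, 2 held the composite at their strongest peak, those of rpb-6 and sod-1.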

How the data were processed

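Peak lists of 2 biological replicates of 1 group were used. Per the deposited file listing, the authors called relaxed peaks for each replicate and for the pooled data against 1 control, and derived the IDR list from them. The control was not analysed here, and no aligner, caller or IDR threshold is given in the sources used here. Signal, as deposited, is the authors' peak strength on an unstated scale, and the deposited −log10 q-value was not used for ranking. Depth is unknown. Coordinates are 1-based on ce11; all peaks ended within the 6 chromosomes of the RefSeq WBcel235 genome.

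Genes were the 19973 protein-coding genes of Ensembl release 115. Peaks were classified and motifs searched with Python 3.11.15, numpy 2.4.6, pandas 2.3.3 and scipy 1.17.1, tested on simulated data. No test between groups exists for 1 group. Replicate values came from the 2797 strongest peaks of each replicate. The rule, the 15 gene lists and the motifs were chosen with earlier results of these data known. The genes named were those of the 20 strongest peaks, the 5 with the strongest peaks per list, the 5 longest groups, the 5 strongest peaks at later genes and 5 list genes without a peak in alphabetical order; any other name was chosen after its values were seen. Copies of near-identical genes are uncertain, since the treatment of reads that map to several places is not stated.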

Additional observations from a re-analysis of the deposited data

How the results depend on the processing

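The number of operon-like peaks stayed between 249 and 310 under every alternative run. The share of first genes with such a peak moved with the definition of a group: it was 16.95% with gaps of up to 200 bp, 7.59% with 1000 bp, 9.255% with a window of 500 bp upstream, 9.908% with neighbours of any biotype, 6.245% with peaks above the median signal only and 28.52% with divergent peaks counted. The share of later genes was 8.08% with the 500 bp window and 6.464% with peaks above the median signal. The E2F octamer share was 11.98% for peaks above the median signal, 7.333% within 50 bp and 14.67% within 200 bp of the summit. The composite, and its alternatives, were chosen after seeing the data: its share was 23.35% for peaks above the median signal, 11% with 3 bases between the parts, 16.67% with 2 to 5, 13.33% within 50 bp and 17% within 200 bp. With either replicate left out, the share of first genes was 10.35% to 10.87%, the octamer share 9.689% to 10.3%, the composite share 14.19% to 14.29% and the median summit 245 to 247 bp upstream (signed distance -247 to -245). The share of peaks above the list's median stayed between 53.49% and 59.11%. The number found in both replicates was 291 with summits within 100 bp, 257 within 50 bp and 298 within 200 bp. No paired analysis was possible because the series has 1 group.

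Depth limits what can be said of weak sites: the read numbers are unknown, so a gene without a peak is one without a peak in this list. Of 1900 first genes without a reproducible peak, 689 had a summit of the pooled relaxed list in their window (36.3%, 34.1 to 38.5).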

Other observations

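Some first genes carried a pair of operon-like peaks, chosen for mention after their values were seen. There were 9 of them. allo-1 had signals of 211 and 87.9 at 697 and 224 bp upstream. his-72, a histone H3.3 gene, had 70.7 and 59.7. rme-8, an endocytosis gene, had 140 and 30.7. For T28F4.4, with 200 and 41.2, each summit was near a different annotated 5' end.

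The operon-like peaks followed the chromosomes much as the whole list did, except on the X chromosome. Chromosome I held 20.3% of them and 21.3% of all reproducible peaks, chromosome II 21.7% and 17.2%, chromosome III 22.7% and 21.8%, chromosome IV 14% and 16.6%, and chromosome V 16.7% and 14%. The X chromosome held 4.67% of them (2.57 to 7.71) and 9.08% of all reproducible peaks (8.04 to 10.2), and these intervals do not overlap. Set against the first genes, an operon-like peak stood before 16.6% of the first genes of chromosome III (13.1 to 20.6; 15.7% ± 0.533, SD, n = 2), 13.7% on chromosome I (10.6 to 17.3), 12.7% on chromosome II (9.88 to 15.9) and 9.3% on chromosome IV (6.73 to 12.5). On chromosome V it was 7.2% (5.37 to 9.4) and on the X chromosome 6.36% (3.52 to 10.4; 7.27% ± 1.29). No test was made.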
